A study of Arabidopsis thaliana with 4 samples.

Results

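Cytochrome P450 genes were examined in seedlings of Arabidopsis thaliana that over-express the rice tau class glutathione S-transferase gene OsGSTU4 and in wild-type (WT) seedlings. A gene was counted as a member if its symbol was CYP followed by a family number of 2 or 3 digits, a subfamily letter and a gene number, and if the array carried a probe set that the platform annotation gives to that gene alone. This rule took 22 genes of the 13355 genes with such a probe set. The RefSeq gene table (assembly TAIR10.1) holds 225 genes with a symbol of this form in 40 families. For 203 of them the annotation named no probe set for the gene alone, so they were not followed here. The annotation named a single gene for 13513 of the 22746 probe sets tested, so a gene without such a name may still be read by the array. The members came from 5 families. The family CYP71 gave 18 members, all from the subfamily CYP71B, which has 35 genes in that table. The families CYP51, CYP78, CYP79 and CYP84 gave 1 member each. The values below therefore describe mainly the CYP71B subfamily and not the P450 family as a whole. Each member had 1 single-gene probe set, and none of these was of the kinds marked as reading several similar transcripts (_s_at or _x_at). RefSeq lists 20 members as protein coding and 2, CYP51G2 and CYP71B27, as transcribed pseudogenes.

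Cytochrome P450 enzymes are heme proteins that activate molecular oxygen and insert an oxygen atom into small molecules, mostly at the surface of the endoplasmic reticulum, with electrons passed on from NADPH by cytochrome P450 reductase. In plants they take part in the synthesis of lignin, sterols, hormones, glucosinolates and phytoalexins, and they also oxidize foreign compounds such as herbicides. The oxidized products can then be joined to sugars by glycosyltransferases or to glutathione by glutathione S-transferases. The genes of a subfamily often lie next to each other on a chromosome as the products of repeated gene duplication, which is the case for CYP71B.

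Total RNA of whole seedlings was hybridised to 4 Affymetrix arrays, 2 labelled 35S:OsGSTU4 here and 2 labelled WT. In the first group the rice gene was driven by the constitutive CaMV 35S promoter, and per the study's text the arrays came from a single homozygous transgenic line. The labels call this group GST-overexpression without naming the gene, while the design text of the submitters speaks once of a GRX line. Both groups were of the ecotype Columbia and 14 days old, were grown on MS medium with 16 h of light and 8 h of darkness, and received no stress treatment. The labels count 2 biological replicates per genotype, whereas the methods of the study state more replicates and a shorter day.

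All values are the authors' log2 signals of probe sets. Median signals over the 22746 probe sets tested were 7.41 and 7.42 in the 35S:OsGSTU4 arrays and 7.29 and 7.37 in the WT arrays, and the numbers of probe sets at exactly 0 were 95 and 58 against 167 and 17. For actin, the control probe set at the 3′ end exceeded that at the 5′ end, a gap that grows as the labelled RNA becomes less complete, by 4.07 and 3.76 in the 35S:OsGSTU4 arrays and 3.48 and 3.53 in the WT arrays. For GAPDH the same gap was 1.05 and 1.36 in the 35S:OsGSTU4 arrays and 1.01 and 0.96 in the WT arrays. The part of these gaps in the differences below was not tested. Of 6 listed markers of green tissue 1 was measured, of 6 root markers 2, and of 6 markers each of flowers and seeds none. The Rubisco activase gene RCA had signals of 14.59 and 14.87 against 14.40 and 14.74. The root beta-glucosidase gene PYK10 had 13.30 and 13.20 in the 35S:OsGSTU4 arrays against 13.47 and 13.50 in the WT arrays. The root hair expansin gene EXPA7 had 6.79 and 4.50 in the 35S:OsGSTU4 arrays against 7.11 and 7.17 in the WT arrays. Green tissue and root were thus both represented in all 4 arrays. In RNA of whole seedlings, fewer cells of a type and less RNA per cell cannot be told apart.

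Differences are given as 35S:OsGSTU4 minus WT on the log2 scale, with the standard error of limma, a linear model that moderates the variance of each probe set by those of all others. The direction of these differences was opposite to that in the study's own list of changed genes, at 63 of the 63 probe sets printed there, so groups are named by their labels throughout. The labels of the arrays, or the columns behind that list, may have been exchanged. If those of the arrays were, every sign below would turn. No probe set reads the rice gene, so the arrays do not settle which holds. The study reports real-time PCR of selected genes in the direction of its list, and those values were not part of the data used here. Of P450 genes that the study names, CYP81D11 and PAD3 had no single-gene probe set here. The thresholds of the study were a fold of 2 and a P of 0.05, here applied to the fold and the unadjusted P of limma. With 2 arrays against 2 an exact permutation test cannot reach a p below 0.333, and none was run.

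Of the 22 P450 genes, 2 were higher past these thresholds in the 35S:OsGSTU4 arrays, CYP71B16 and CYP71B25, against 2.38% of all probe sets. The only gene lower past them was CYP79A2, against 2.34% of all probe sets. The split of 2 higher and 1 lower changed in every fit without 1 array. All 3 were read by dim probe sets, and among the 11373 probe sets at or below the median signal of 7.35 the shares were 4.43% higher and 4.49% lower. As 17 of the 22 P450 genes lay in that lower range, where calls were more frequent, counts of 2 and 1 are not read as a result about P450 genes. No P450 gene passed an adjusted p of 0.05 in limma, nor did any of the 22746 probe sets (0%). Unadjusted, 4 P450 genes and 1317 probe sets were under 0.05. A Student's t-test with equal variances, run on the same values, also left none after adjustment. The study names a Student's t-test in its statistical methods but does not say which test gave its array P. It is called the methods' test below.

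CYP71B16 (AT3G26150), a member of the CYP71B cluster on chromosome 3, had signals of 4.30 and 4.79 in the 35S:OsGSTU4 arrays against 1.68 and 2.03 in the WT arrays. The arrays of each genotype lay close together and the genotypes were far apart. The difference was 2.69 (standard error 0.32), with an adjusted p = 0.388 from limma over all probe sets. No detection calls were used here, so the WT signals are not known to lie above background and no fold is given. The difference ran from 2.44 to 2.93 when each array was left out in turn. This was the one gene of the 3 that passed the thresholds under the methods' test. It no longer passed them when the variance was allowed to follow the signal, where its standard error was 1.26 (adjusted p = 0.773). CYP71B25 (AT3G26270), from the same stretch of the chromosome, had 3.34 and 5.09 in the 35S:OsGSTU4 arrays against 0 and 1.78 in the WT arrays. Its arrays did not overlap either, but both groups were spread and WT replicate 1 was listed at 0. The difference was 3.32 (0.98) with an adjusted p = 0.822, and the P threshold was missed when WT replicate 1 (2.43) or 35S:OsGSTU4 replicate 2 (2.45) was left out. It was also missed with a variance that follows the signal and under the methods' test, and the largest difference was 4.21, without WT replicate 2.

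CYP79A2 (AT5G05260) encodes the enzyme that turns phenylalanine into its aldoxime, the first step towards benzylglucosinolate. Its signals were 2.86 and 0.95 in the 35S:OsGSTU4 arrays against 4.64 and 4.76 in the WT arrays. The WT arrays were nearly equal, whereas the 35S:OsGSTU4 arrays differed by 1.90, and both lay below WT. The difference was -2.79 (0.76), with an adjusted p = 0.782, and no fold is given, as the 35S:OsGSTU4 signals are not known to lie above background. It no longer passed the P threshold without WT replicate 1 (-2.86), without WT replicate 2 (-2.73), with a variance that follows the signal or under the methods' test. The difference was -3.75 without 35S:OsGSTU4 replicate 1 and -1.84 without 35S:OsGSTU4 replicate 2. Each of these fits holds a single 35S:OsGSTU4 array, so the gap of 1.90 does not enter its variance.

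**Figure D1:**
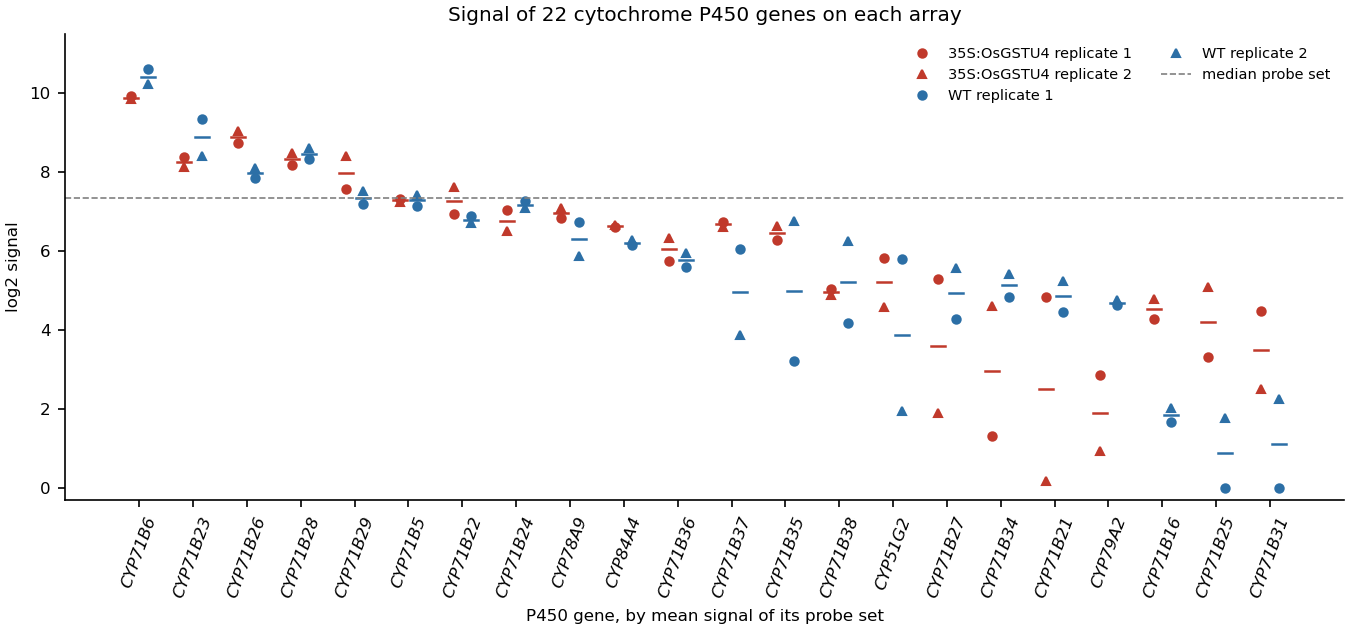
Log2 signal of each of the 22 P450 genes on each array, with 35S:OsGSTU4 points (red) left of WT points (blue), circles for replicate 1, triangles for replicate 2 and a short bar for the mean of 2 arrays. The dashed line marks the median probe set at 7.35, above which lay 5 genes, and the arrays of a group scatter widely among the dim genes on the right.

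The 5 members with a signal above the median probe set all belonged to CYP71B. Signals of different probe sets also depend on their oligonucleotides, so they do not give an order of transcript amounts among genes. CYP71B6 (AT2G24180) encodes an enzyme of indole metabolism that acts on indole-3-acetonitrile, a product of the indole glucosinolate and camalexin pathways. It had signals of 9.92 and 9.85 in the 35S:OsGSTU4 arrays against 10.60 and 10.24 in the WT arrays. Both 35S:OsGSTU4 arrays lay below both WT arrays, by a mean difference of -0.53 (0.26) (adjusted p = 0.895), or of -0.35 without WT replicate 1. CYP71B26 (AT3G26290) had 8.73 and 9.04 against 7.85 and 8.10 in WT. Its difference of 0.91 (0.26), a 1.88-fold higher signal, exceeded the gap between replicates in both groups, at 0.30 and 0.25, and ran from 0.76 to 1.06 with single arrays left out. It stayed under the fold threshold, and its adjusted p was 0.817.

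CYP71B23 (AT3G26210) had signals of 8.39 and 8.12 in the 35S:OsGSTU4 arrays against 9.34 and 8.41 in the WT arrays. These did not overlap, but the gap between the WT replicates, at 0.93, was larger than the difference of -0.62 (0.43), which was -0.15 without WT replicate 1 and -1.09 without WT replicate 2. CYP71B28 (AT1G13090) had 8.17 and 8.49 against 8.32 and 8.61, with overlapping arrays and a difference of -0.14 (0.27). CYP71B29 (AT1G13100), its direct neighbour on chromosome 1, had 7.58 and 8.40 against 7.19 and 7.52. Here the 35S:OsGSTU4 arrays were higher without overlap, by 0.63 (0.40), less than the gap of 0.82 between them. The difference was 1.04 without 35S:OsGSTU4 replicate 1 and 0.22 without 35S:OsGSTU4 replicate 2. The 5 genes thus gave 2 higher and 3 lower means, with a median of -0.14 and differences from -0.62 to 0.91. Among all 11373 probe sets above the median signal the median difference was 0.042.

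Neighbouring genes are a feature of this set that the rule did not use. On chromosome 3, P450 genes lie in runs with at most 5 other genes between them, and 2 such runs, from AT3G26125 to AT3G26230 and from AT3G26270 to AT3G26330, hold 11 and 8 P450 genes. They gave 5 and 6 members. In the first run CYP71B16 was followed by 4 measured genes, of which 1 had a higher and 3 had a lower mean. CYP71B21 (AT3G26190) had signals of 4.83 and 0.20 in the 35S:OsGSTU4 arrays against 4.46 and 5.25 in the WT arrays. A single array made this difference of -2.34 (1.81), which was -0.027 without 35S:OsGSTU4 replicate 2. CYP71B22 (AT3G26200) had 6.93 and 7.62 against 6.89 and 6.71, a difference of 0.48 (0.34). CYP71B24 (AT3G26230) had 7.04 and 6.51 against 7.27 and 7.09, a difference of -0.40 (0.30). In both of these genes the arrays stood apart but the 35S:OsGSTU4 replicates differed from each other by more than the genotypes. With single arrays left out the differences ran from 0.14 to 0.82 for CYP71B22 and from -0.67 to -0.14 for CYP71B24, both set by the 35S:OsGSTU4 replicates. The median difference in the run was -0.40, from -2.34 to 2.69.

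In the second run 5 of 6 members had a higher mean in the 35S:OsGSTU4 arrays, or 83.3% beside 53.6% of all 13355 genes. The median difference in this run was 1.18, from -2.17 to 3.32. Of the 6 members, CYP71B25 and CYP71B26 are described above. CYP71B34 (AT3G26300), the exception, had signals of 1.32 and 4.61 in the 35S:OsGSTU4 arrays against 4.84 and 5.43 in the WT arrays. Its difference of -2.17 (adjusted p = 0.895) rested largely on 35S:OsGSTU4 replicate 1, without which it was -0.52. CYP71B35 (AT3G26310) had 6.28 and 6.64 against 3.23 and 6.77, so that only WT replicate 1 stood apart. Its difference of 1.46 (1.38) turned to -0.31 when that array was left out. CYP71B36 (AT3G26320) had 5.76 and 6.34 against 5.61 and 5.95, with overlapping arrays and a difference of 0.27 (0.34). CYP71B37 (AT3G26330) had 6.75 and 6.61 against 6.06 and 3.87, higher without overlap by 1.71 (0.87), or by 0.62 without WT replicate 2 and by 2.81 without WT replicate 1. Means of both directions and of unlike size occurred within either run. Most of these differences were small beside their standard errors or rested on 1 array, so a shared direction is neither shown nor excluded. No test of the runs was made.

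**Figure D2:**
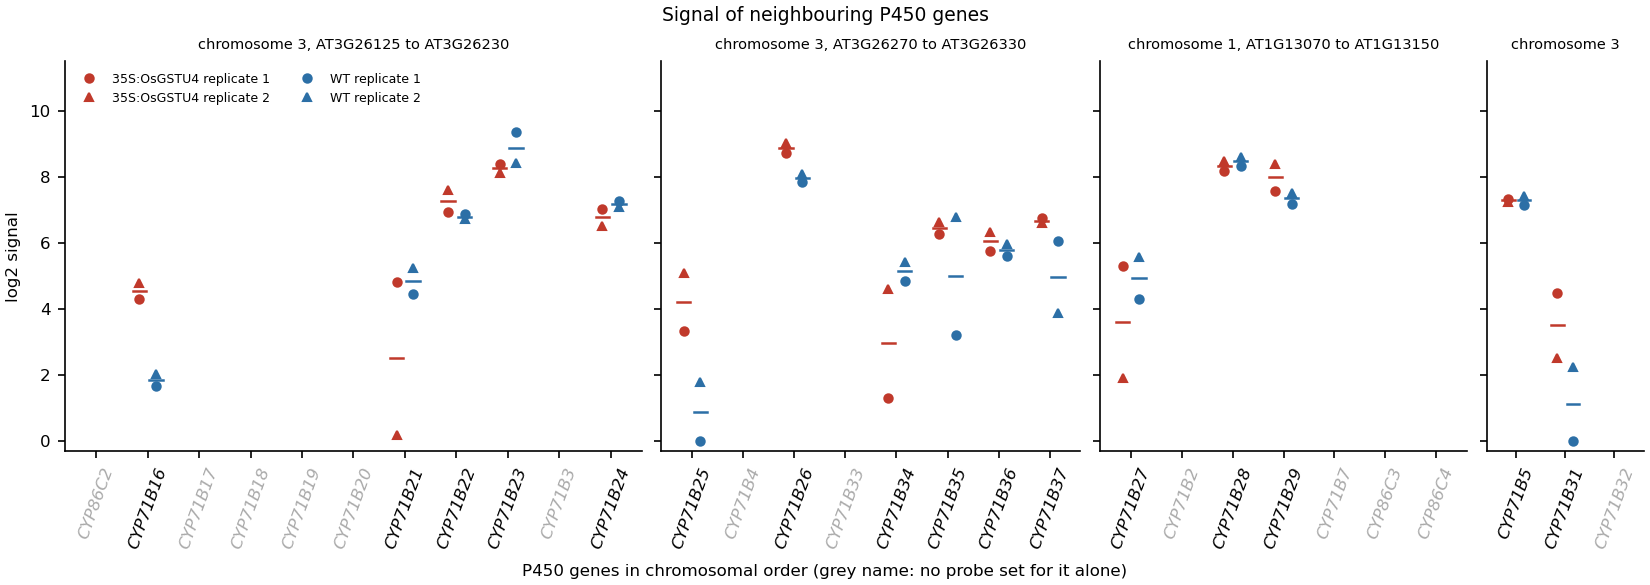
Log2 signal of P450 genes that lie near each other, in chromosomal order, with 35S:OsGSTU4 (red) left of WT (blue), circles for replicate 1, triangles for replicate 2 and bars for means of 2 arrays. Black names are measured genes and grey names have no probe set of their own. CYP71B16, CYP71B25 and CYP71B31 lie higher in the 35S:OsGSTU4 arrays without overlap, all at dim signals. CYP71B22, CYP71B26, CYP71B29 and CYP71B37 also lie higher without overlap, at brighter signals. CYP71B23, CYP71B24 and CYP71B34 lie lower without overlap. WT replicate 1 is listed at 0 for CYP71B25 and CYP71B31, and their replicates are spread. CYP71B21 and CYP71B34 each have 1 low 35S:OsGSTU4 array.

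The remaining CYP71B genes lie in smaller groups or alone. On chromosome 1, the pseudogene CYP71B27 (AT1G13070) near CYP71B28 and CYP71B29 had signals of 5.30 and 1.92 in the 35S:OsGSTU4 arrays against 4.30 and 5.58 in the WT arrays. The arrays overlapped, and the difference of -1.33 (1.40) turned to 0.36 without 35S:OsGSTU4 replicate 2. Further along chromosome 3, CYP71B5 (AT3G53280) had 7.32 and 7.25 against 7.15 and 7.42, a difference of 0.00 (0.24) that became -0.084 with arrays centred on their medians and -0.092 after quantile normalization. Its near neighbour CYP71B31 (AT3G53300) encodes an enzyme that oxidizes linalool, a floral scent compound, together with the product of CYP76C3. It had 4.50 and 2.52 in the 35S:OsGSTU4 arrays against 0 and 2.25 in the WT arrays, with WT replicate 1 listed at 0. The arrays did not overlap and the difference was 2.38 (1.17), with an adjusted p = 0.895, or 1.25 without that array. CYP71B38 (AT3G44250) had 5.04 and 4.89 against 4.18 and 6.26, where the WT arrays lay on both sides of the others.

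Outside CYP71B, the members of families CYP84, CYP78 and CYP51 had higher means in the 35S:OsGSTU4 arrays, none of them past the thresholds. CYP84A4 (AT5G04330) encodes an enzyme of the synthesis of arabidopyrones, metabolites of the phenylpropanoid pathway. It had signals of 6.61 and 6.66 in the 35S:OsGSTU4 arrays against 6.15 and 6.28 in the WT arrays. The replicates differed by only 0.05 and 0.13, and the difference of 0.42 (0.22), a 1.34-fold higher signal, kept between 0.36 and 0.49 with single arrays left out (adjusted p = 0.895). CYP78A9 (AT3G61880), a gene that promotes the growth of fruits and seeds, had 6.84 and 7.08 against 6.75 and 5.88. The arrays did not overlap, but the difference of 0.65 (0.41) was smaller than the gap between the WT replicates. It was 1.08 without WT replicate 1 and 0.21 without WT replicate 2. CYP51G2 (AT2G17330) is a pseudogene related to the sterol 14-demethylase gene. It had 5.83 and 4.59 against 5.81 and 1.95, with overlapping arrays and a difference of 1.33 (1.56) that turned to -0.60 without WT replicate 2.

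**Figure D3:**
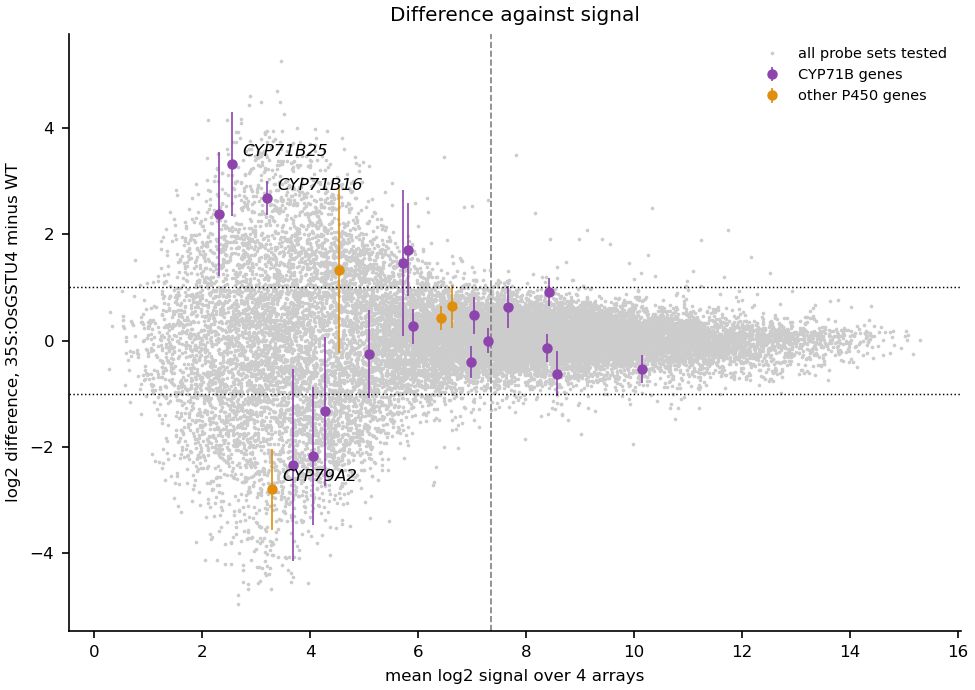
Log2 difference, 35S:OsGSTU4 minus WT, against the mean log2 signal over 4 arrays for all 22746 probe sets (grey), the 18 CYP71B genes (purple) and the 4 other P450 genes (orange), with standard errors from limma. Dotted lines mark a fold of 2 in either direction and the dashed line the median signal of 7.35. The 3 named genes, past both thresholds, lie at the dim end where grey points reach as far.

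Across the 22 members, 13 had a higher and 9 a lower mean in the 35S:OsGSTU4 arrays, or 59.1% higher against 53.6% of all 13355 genes. With the array labels exchanged, 9 would be higher and 13 lower, and the medians would change sign. With each array centred on its median or after quantile normalization, 12 were higher. The median difference was 0.34, beside 0.038 over all genes. It was 0.26 with centred arrays, 0.31 after quantile normalization and -0.021 without WT replicate 1. The arrays of the genotypes did not overlap at 9 members that were higher and 5 that were lower, beside 21.1% and 16.3% of all probe sets. The difference was larger than the gap between replicates in both groups at 7 members, CYP71B6, CYP71B16, CYP71B25, CYP71B26, CYP71B31, CYP79A2 and CYP84A4, beside 24.0% of all probe sets. For the 18 CYP71B genes alone, 10 were higher and 8 lower with a median of 0.13, which was -0.14 without WT replicate 1.

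The spread between replicates differed with signal. In the 17 members at or below the median signal the median gap between replicates was 0.58 in the 35S:OsGSTU4 arrays and 0.79 in the WT arrays, and the median absolute difference was 1.33. In the 5 brighter members the gaps were 0.30 and 0.33 and the median absolute difference was 0.62. Over all probe sets the dim ones had gaps of 0.78 and 0.92 and a median absolute difference of 0.66, and the bright ones had gaps of 0.22 and 0.27 and a median absolute difference of 0.21. With single arrays left out, 15 members kept their direction in all 4 fits and 7 did not. The 9 higher and 5 lower members without overlap, beside 21.1% and 16.3% of all probe sets, keep their direction by construction. The only other one was CYP71B21, at -0.027 without 35S:OsGSTU4 replicate 2. This count is thus no separate check of stability.

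**Figure D4:**
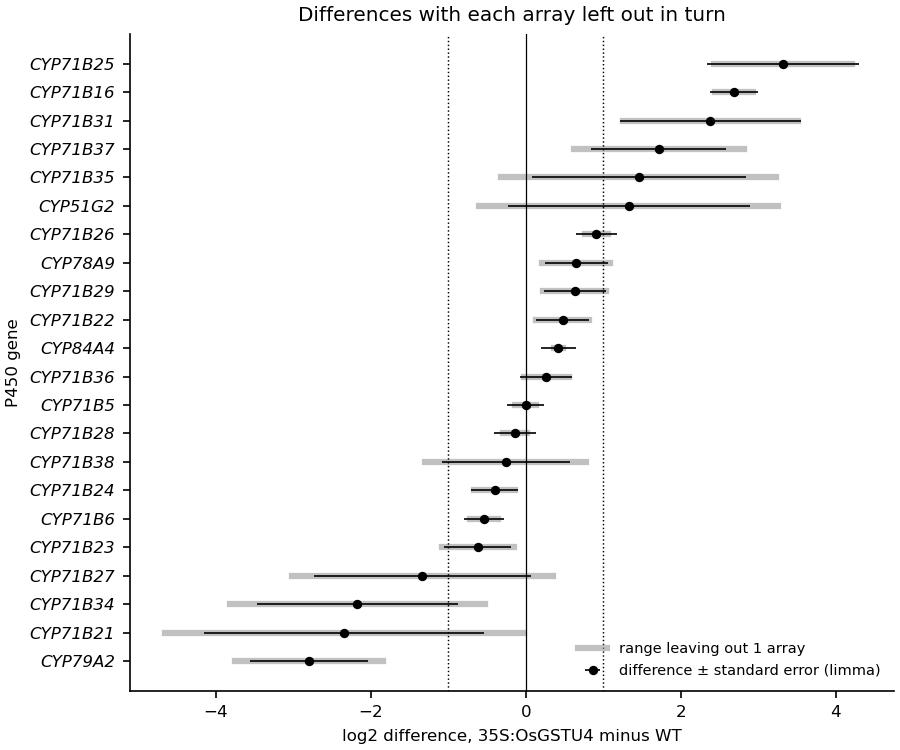
Log2 difference, 35S:OsGSTU4 minus WT, of each P450 gene (black point) with its standard error from limma (thin line), and the range of the difference when each of the 4 arrays is left out in turn (grey bar). Dotted lines mark a fold of 2. The bars of CYP71B16, CYP71B26 and CYP84A4 are short and do not reach 0, whereas those of CYP71B35, CYP51G2 and CYP71B27 cross it.

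The best known roles of plant P450 genes were barely represented. Among 14 lists of P450 genes by pathway, 6 had a measured member and each of these had exactly 1. These were CYP84A4 of 7 lignin and phenylpropanoid genes, CYP79A2 of 11 glucosinolate genes, CYP71B6 of 9 camalexin and indole defence genes, CYP78A9 of 6 organ growth genes, CYP71B28 of 8 xenobiotic and stress genes and CYP71B31 of 3 terpenoid genes. By mean, 3 of these 6 were higher and 3 lower, and CYP79A2 was the one past the thresholds. The brassinosteroid, gibberellin, abscisic acid, cytokinin and strigolactone, jasmonate, sterol and triterpene, carotenoid, and fatty acid and cutin lists had no measured gene. The annotation named no probe set for any of their genes alone. The same held for the 9 genes listed as redox partners, which include the cytochrome P450 reductases ATR1 and ATR2 and the cytochrome b5 genes that pass electrons to these enzymes.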

How the data were processed

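Per the labels, biotinylated cRNA of 4 seedling samples was hybridised to Affymetrix Arabidopsis arrays. The authors deposited log2 signals per probe set. The submitters' processing notes name RMA, with no version, but the array distributions differ. The linear mean between the 2nd and 98th percentile is near 500.05 on each array and values stop at 0, as after a MAS5-type scaling. The 64 control probe sets were left out and 22746 tested as deposited with limma 3.58.1 in R 4.3.3, without a filter or replicate block, and P was adjusted by Benjamini and Hochberg over all. The fit was tested on simulated data in which only probe sets above the median signal were changed, so changes in dim probe sets were not covered. Figures were drawn with matplotlib 3.10.9.

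Of 13513 single-gene probe sets, 13436 were tied to the RefSeq table by Entrez ID, 72 by symbol or locus tag and 5 not at all. The brightest probe set stood for a gene. P450 genes on probe sets of several genes were not used as members. The members, pathway lists and naming rule (genes past the thresholds, the 10 brightest, the brightest of each pathway list, measured redox partners and P450 genes of the study's tables) were chosen with earlier results of these data known; the other members were described for completeness. The labels' replicates are biological, and their number limits the precision. Alternatives were other scalings, a signal filter, an intensity trend, the methods' t-test, a replicate block, single arrays left out, other thresholds and other membership rules.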

Additional observations from a re-analysis of the deposited data

How the results depend on the processing

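Centring on medians, quantile normalization and the replicate block left 3 P450 genes past the thresholds, beside 1074, 1100 and 1301 of all 22746 probe sets. The membership alternatives, which changed no member, also left 3. A fold of 1.5 took 4 P450 genes, beside 1317 of all 22746 probe sets. Over all probe sets the count at a fold of 2 was 1074. It was 583 with an intensity trend, 479 with the methods' t-test and 96 among probe sets above the median signal. It was 0 after adjustment in limma or the t-test. For P450 genes these settings gave 0 with the trend, 1 with the t-test, 0 above the median signal, where 5 were tested, and 0 after adjustment in either test. Leaving out single arrays gave 1286 to 1815 probe sets (1708 without WT replicate 1 and 1815 without WT replicate 2, of which 1161 were higher and 654 lower, against 542 and 532 with all arrays) and 3 to 5 P450 genes (5 without 35S:OsGSTU4 replicate 1). The number of P450 genes with a higher mean was 13, 2 of 5 above the median signal, and 11 to 14 with arrays left out. Their median difference was 0.34, -0.14 above the median signal, and -0.021 to 0.50 with arrays left out. For the CYP71 family the median was 0.13, -0.14 above the median signal, and -0.14 to 0.42 with arrays left out. Apart from fits without 1 array, the direction turned only in CYP71B5 (-0.084 centred, -0.092 after quantile normalization). With arrays left out it ranged from -0.13 to 0.13 for CYP71B5, -0.30 to 0.020 for CYP71B28, -0.022 to 0.56 for CYP71B36, -0.31 to 3.23 for CYP71B35, -1.30 to 0.78 for CYP71B38, -0.60 to 3.26 for CYP51G2 and -3.02 to 0.36 for CYP71B27. The causes were not tested.

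The replicate numbers share only a number. Replicate 1 minus 2 correlated between the genotypes at 0.048 over 22746 probe sets, and the replicate block called 1301 probe sets and 3 P450 genes. Low signals limit most of these genes: 17 of 22 lay at or below the median probe set, and 2 were listed at 0 on an array.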

Other observations

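Some P450 sequences were read by probe sets outside the 22 genes above. CYP71B19 and CYP71B20, neighbours in the first chromosome 3 run, share a probe set that cannot tell them apart. Its signals were 9.44 and 9.58 in the 35S:OsGSTU4 arrays against 9.44 and 9.01 in the WT arrays, a difference of 0.28 (standard error 0.28) with an adjusted p = 0.895 from limma. In this pair the WT replicates differed from each other by more than the genotypes. The probe set shared by CYP79C2 and AT1G58265 had 3.38 and 1.86 against 0.46 and 2.79 in the WT arrays, with overlapping arrays.

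CYP718, whose symbol lacks a subfamily letter, had 3.46 and 3.35 in the 35S:OsGSTU4 arrays against 5.91 and 3.01 in the WT arrays, so that 1 WT array stood apart. The pseudogene CYP71B30P had 0.94 and 1.61 in the 35S:OsGSTU4 arrays against 1.18 and 2.01 in the WT arrays. RefSeq also holds 15 genes that carry a name of the CYP form only among their synonyms, and none of these had a single-gene probe set.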
